A study of Mus musculus with 16 samples.

Results

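Autophagy, mitophagy and lysosome genes were followed through the mouse liver under 3 patterns of low oxygen. The 33 genes come from a list of the cell's self-digestion machinery, which names them one by one. The list was chosen with earlier results of these data known, so its counts are not those of a blind choice. All 33 were found among the 55487 genes of the table by their Ensembl identifiers, and all 33 passed the filter on low counts that left 14553 genes for testing. The mice were wild type C57BL/6J animals aged 12 weeks, and the RNA came from liver. They had been kept in intermittent hypoxia, sustained hypoxia, overlap hypoxia (both exposures combined, per the series title) or room air, with 4 libraries in each group. The labels used here state neither oxygen levels nor exposure times, sex or feeding state, and feeding is known to act on autophagy genes. Each library carries a number of its own, but whether each came from a separate animal is not stated, so the p-values rest only on how far libraries of a group differ. No batch or exposure run is labelled, so such a run cannot be told apart from the exposure.

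Autophagy encloses cytoplasm in a double membrane, the autophagosome, and delivers it to lysosomes for breakdown. The ULK1 kinase complex starts the process, a class III PI3 kinase complex marks the membrane with a lipid, and a ubiquitin-like conjugation chain attaches LC3 and GABARAP proteins (the ATG8 family) to it. Receptors such as p62 and BNIP3 tie cargo or mitochondria to LC3, lysosomal cathepsins and glycosidases digest what arrives, and the factors TFEB and TFE3 switch on many of these genes. In the liver the pathway is known for supplying nutrients in fasting and for clearing damaged mitochondria, and the BNIP3 gene is a textbook target of the hypoxia-inducible factors.

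Libraries held between 10940253 and 64789587 estimated counts. The tissue was checked because the extraction text names retina: 8 hepatocyte marker genes summed to 56549.8 to 81422 CPM (the usual library-scaled count, with TMM scaling) in intermittent hypoxia and 59348 to 87334 CPM in room air, while 5 retina markers summed to 4.96 to 10.6 CPM in intermittent hypoxia and 2.95 to 7.29 CPM in room air. Ribosomal RNA genes took 25.2% ± 6.996 of counts in intermittent hypoxia, 2.16% ± 0.698 in sustained hypoxia, 9.59% ± 5.82 in overlap hypoxia and 5.22% ± 3.71 in room air (SD, n = 4 each). The intermittent hypoxia and room air libraries did not overlap in this share, in the mitochondrial share or in the share of major urinary protein transcripts (exact two-sided permutation p = 0.0286 for each, the smallest that 4 against 4 libraries can give, 0.114 after Benjamini-Hochberg adjustment over 12 tests). The mitochondrial share was higher in intermittent hypoxia (8.44% ± 2.31, against 2.11% ± 0.68 in room air). The major urinary protein share was lower there (5.96% ± 3.23, against 20.1% ± 4.4; SD, n = 4 each).

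Markers of Kupffer cells, the lysosome-rich macrophages of the liver, summed to 73.2 to 136 CPM in intermittent, 146 to 201 CPM in sustained and 110.2 to 159 CPM in overlap hypoxia, against 139.8 to 219.8 CPM in room air, and 6 of the 10 passed the edgeR test as lower in both intermittent and overlap hypoxia. In sustained hypoxia none of the 10 passed, 7 had an unadjusted p under 0.05, and the median log2 fold change was −0.78. *C6*, the most abundant of the 10 in the mean of every group, had 20.2 to 77.9 CPM in intermittent, 90.1 to 107 CPM in sustained and 74.9 to 117 CPM in overlap hypoxia, against 60.4 to 112 CPM in room air. The other 9 summed to 34.5 to 58.4, 55.4 to 94.1 and 35.3 to 42.2 CPM in intermittent, sustained and overlap hypoxia, against 79.5 to 138 CPM in room air, so that without *C6*, left out after its values were seen, the intermittent and overlap libraries lay below all room air libraries. None of the 10 Kupffer markers was at 0 in any group. The 8 markers of other myeloid cells summed to 13.8 to 33.6, 31.6 to 46.8 and 16.8 to 24.8 CPM in the same order, against 54.03 to 103 CPM in room air, with no overlap in any exposure. *Lyz2*, the lysozyme of macrophages and other myeloid cells, made up most of each sum. Without *Lyz2* the sums were 3.79 to 6.10, 3.19 to 5.31 and 2.48 to 5.59 CPM, against 5.10 to 8.25 CPM in room air. All 3 exposures then overlapped room air. Of the 8 markers 7 were tested, and 2 of these passed as lower and 1 as higher in intermittent, none in sustained and 1 as lower in overlap hypoxia. The 8 sinusoidal endothelial markers summed to 113 to 129, 80.3 to 110.1 and 48.2 to 86.9 CPM, against 102 to 127 CPM in room air. In overlap hypoxia 4 of them passed as lower, and in intermittent hypoxia 1 passed as lower and 2 as higher. Of all genes tested, 2.89% passed as lower in overlap hypoxia and 0.0481% in either direction in sustained hypoxia. In intermittent hypoxia 18.3% passed as lower and 18.9% as higher, and the counts of the other myeloid and endothelial markers there lay near those shares. In bulk liver, fewer cells of a type and less RNA per cell cannot be told apart, and the part of these marker shifts in the results that follow was not tested.

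In intermittent hypoxia 17 of the 33 genes fell and 3 rose against room air, while 13 did not pass (edgeR quasi-likelihood test over all 14553 genes, Benjamini-Hochberg adjusted p under 0.05). Of all genes tested, 37.1% passed in that comparison, 18.3% as lower and 18.9% as higher. The median log2 fold change was −0.39 over the 33 genes, against 0.03 over all genes, and 26 of the 33 values were negative. All 5 ATG8 genes, all 4 receptor genes and 5 of 6 lysosomal genes were among those that fell. In 15 genes all 4 intermittent hypoxia libraries lay below all 4 room air libraries, which 18% of all genes did, and in 1 gene they lay above, which 17.4% of all genes did.

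No member passed in sustained hypoxia, where 0.0481% of all genes did. At an unadjusted p under 0.05, 4 of the 33 were below the threshold (11.5% of all genes), and neither DESeq2 nor limma-voom called any of the 33. The median was 0.04, against −0.01 over all genes. In overlap hypoxia 2 members rose and 3 fell, where 6.29% of all genes passed, 3.41% as higher and 2.89% as lower. The overlap libraries lay above all room air libraries in 4 members and below them in 6, against 6.58% and 7.14% of all genes. Its median was −0.20, against 0.03 over all genes, and 24 of the 33 values were negative. The count of 5 in overlap hypoxia rested on single libraries: edgeR called 3 members without room air replicate 2, 1 without room air replicate 3 or 4, 1 without overlap replicate 1, 2 without overlap replicate 3 and 8 without overlap replicate 2. The 3 comparisons share the room air libraries. The plot of log2 fold changes by role shows the 3 exposures side by side.

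**Figure D1:**
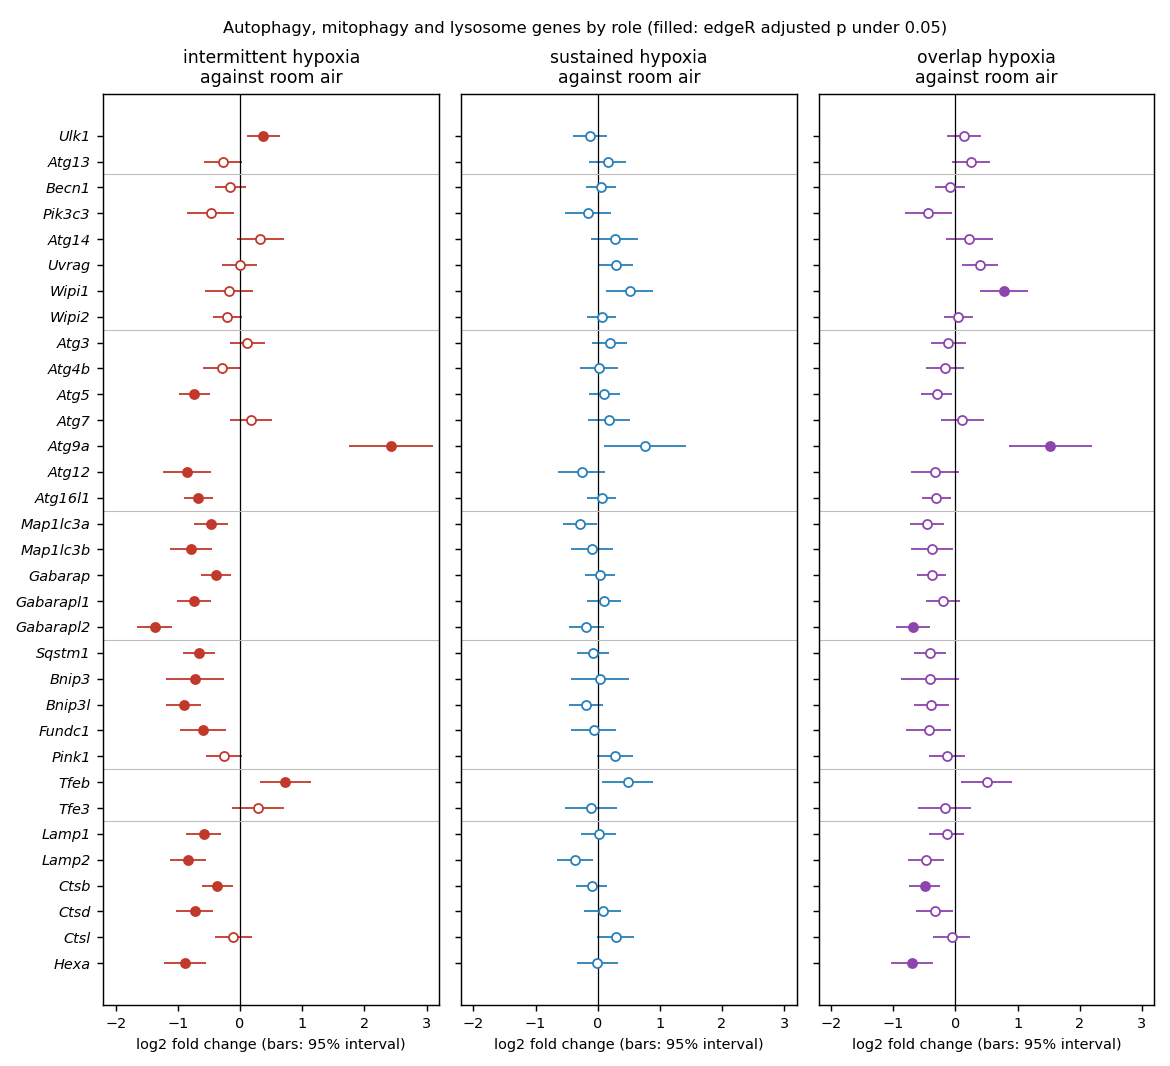
Log2 fold changes of the 33 genes against room air (x axes; 0 means no difference), in rows by role from initiation at the top to lysosomal genes at the bottom, for intermittent, sustained and overlap hypoxia (4 libraries a group). Bars span the 95% interval and filled points passed the edgeR test: 20 in intermittent, 0 in sustained and 5 in overlap hypoxia.

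Promoter sequence was available from RefSeq (GRCm38.p6, 250 bases before to 50 after the start of transcription) for 26 of the 33 genes, and it was searched on both strands for the letters of a TFEB site and of a hypoxia response element. The exact letters GTCACGTGAC, used here for the TFEB site (the CLEAR element), were in none of the 26, and in 0.326% of all 32851 windows. Forms with other flanking letters were not searched, so the lack of a match does not mean the lack of a TFEB site. The core of these letters, the E-box CACGTG, was in 8 of the 26 genes, and in 7.15% of all windows. The hypoxia cores were more frequent: ACGTG, which every E-box also holds, was in 12 of the 26 and in 19.6% of all windows, and GCGTG was in 16 of the 26 and in 32.4%. A match is only a match of letters, and no binding was measured. *Becn1*, *Pik3c3*, *Atg12*, *Atg16l1*, *Map1lc3a*, *Bnip3l* and *Ctsb* had no window. The windows of the 4 genes with the lowest p in intermittent hypoxia among those with a motif are printed first, followed by *Lamp1* and *Bnip3*, which were added after their values and motifs had been seen, because *Lamp1* had the most E-boxes and *Bnip3* is the textbook hypoxia target. Each is written 5′ to 3′ along the gene, with the motifs in capitals on either strand.
*Gabarapl2*, chr8:111940453-111940752 (plus strand): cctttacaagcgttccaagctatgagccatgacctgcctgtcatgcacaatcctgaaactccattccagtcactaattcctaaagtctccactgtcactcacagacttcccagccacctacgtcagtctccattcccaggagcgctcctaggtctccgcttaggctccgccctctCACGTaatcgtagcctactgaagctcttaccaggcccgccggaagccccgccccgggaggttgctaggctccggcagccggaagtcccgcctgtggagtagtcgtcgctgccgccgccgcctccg
*Atg9a*, chr1:75191961-75192260 (minus strand): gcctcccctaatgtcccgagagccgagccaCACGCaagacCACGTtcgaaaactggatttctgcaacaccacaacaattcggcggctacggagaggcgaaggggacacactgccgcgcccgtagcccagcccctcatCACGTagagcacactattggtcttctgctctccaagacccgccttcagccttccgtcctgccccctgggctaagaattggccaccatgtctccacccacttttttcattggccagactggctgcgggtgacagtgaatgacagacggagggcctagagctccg
*Atg5*, chr10:44268089-44268388 (plus strand): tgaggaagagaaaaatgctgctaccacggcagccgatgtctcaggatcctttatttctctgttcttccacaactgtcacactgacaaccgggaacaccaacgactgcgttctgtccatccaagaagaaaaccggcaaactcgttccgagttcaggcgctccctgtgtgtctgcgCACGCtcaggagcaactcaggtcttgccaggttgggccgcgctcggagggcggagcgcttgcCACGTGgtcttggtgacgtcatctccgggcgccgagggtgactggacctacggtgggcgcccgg
*Lamp2*, chrX:38456411-38456710 (minus strand): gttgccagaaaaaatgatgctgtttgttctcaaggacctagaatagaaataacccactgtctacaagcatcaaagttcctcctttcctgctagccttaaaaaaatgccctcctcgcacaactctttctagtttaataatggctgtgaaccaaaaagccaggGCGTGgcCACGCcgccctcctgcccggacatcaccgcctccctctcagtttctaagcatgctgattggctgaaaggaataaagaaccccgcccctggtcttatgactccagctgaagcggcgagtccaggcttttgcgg
*Lamp1*, chr8:13158911-13159210 (plus strand): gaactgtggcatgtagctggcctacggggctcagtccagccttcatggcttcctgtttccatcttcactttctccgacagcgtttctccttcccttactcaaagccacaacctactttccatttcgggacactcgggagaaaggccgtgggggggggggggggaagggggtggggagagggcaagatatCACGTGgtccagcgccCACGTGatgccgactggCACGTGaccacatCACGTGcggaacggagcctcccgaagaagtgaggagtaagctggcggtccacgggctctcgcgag
*Bnip3*, chr7:138909457-138909756 (minus strand): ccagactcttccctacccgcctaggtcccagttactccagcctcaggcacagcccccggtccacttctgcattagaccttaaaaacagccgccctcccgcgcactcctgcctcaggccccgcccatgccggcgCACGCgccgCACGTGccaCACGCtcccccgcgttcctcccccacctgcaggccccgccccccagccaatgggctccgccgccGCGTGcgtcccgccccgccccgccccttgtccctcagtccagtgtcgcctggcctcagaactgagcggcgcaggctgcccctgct

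*Lamp1* held 4 E-boxes, which began 61, 45, 28 and 15 bases before the start. *Bnip3* held 1 E-box, beginning 108 bases before the start, flanked by GCGTG cores that began 117 and 99 bases before it. *Atg5* held an E-box 14 bases before its start, whereas *Gabarapl2* held a single ACGTG core 75 bases before its start, *Lamp2* only GCGTG cores and *Atg9a* both kinds of core. The end of the *Atg5* window matched no transcript of that gene in GENCODE, the annotation used for symbols. The start of *Atg5* and the distance of its E-box therefore depend on the annotation. Of these 6 genes, 5 were lower and *Atg9a* was higher in intermittent hypoxia, as described under their roles.

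The ATG8 genes encode the small proteins that are attached to the autophagosome membrane and that receptors bind. All 5 fell in intermittent hypoxia, with a median log2 fold change of −0.74, none passed in sustained hypoxia and 1 of 5 passed in overlap hypoxia. *Gabarapl2* had 35.3, 41.1, 41.7 and 46.8 CPM in intermittent hypoxia, 95.4, 76.2, 109 and 96.4 CPM in sustained hypoxia, 66.8, 72.1, 51.3 and 76.03 CPM in overlap hypoxia and 96.3, 101, 108 and 123 CPM in room air. Every intermittent and every overlap hypoxia library lay below every room air library, and the intermittent libraries lay below the overlap libraries as well. *Gabarapl2* (GATE-16) fell by 1.38 on the log2 scale in intermittent hypoxia, which left it 61.5% lower (SE 0.15, edgeR adjusted p = 5.84e-06), the lowest p of the 33. In overlap hypoxia its log2 fold change was −0.68 ± 0.14 (SE; edgeR adjusted p = 0.0111), and in sustained hypoxia −0.18 (95% interval −0.46 to 0.10). The adjusted p stayed under 0.05 without any single library in both intermittent and overlap hypoxia.

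*Gabarapl1* had 188, 144, 163 and 226 CPM in intermittent hypoxia, 353, 288, 292 and 361 CPM in sustained hypoxia, 250.3, 234, 271 and 290.5 CPM in overlap hypoxia and 290.4, 289.7, 313.04 and 311.7 CPM in room air. The intermittent hypoxia libraries were the lowest 4 of the 16. The log2 fold change of *Gabarapl1* (GEC1) was −0.74 ± 0.14 (SE; edgeR adjusted p = 4.27e-04) in intermittent hypoxia and −0.20 in overlap hypoxia, where it did not pass. *Map1lc3b* had 90.4, 86.3, 109 and 132 CPM in intermittent hypoxia, 199, 145, 162 and 169 CPM in sustained hypoxia, 119, 142, 136 and 157 CPM in overlap hypoxia and 127, 170.3, 190.2 and 234 CPM in room air. Its intermittent and room air libraries overlapped, since intermittent replicate 4 lay above room air replicate 1, and the log2 fold change of *Map1lc3b*, the LC3 gene most used as an autophagosome marker, was −0.79 ± 0.17 (SE; edgeR adjusted p = 0.00145).

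*Gabarap* had 187, 138, 183 and 162 CPM in intermittent hypoxia, 208, 223, 239 and 229 CPM in sustained hypoxia, 151, 192, 169 and 160.3 CPM in overlap hypoxia and 207, 232, 216 and 221 CPM in room air. Intermittent and overlap hypoxia libraries both lay below all room air libraries. *Gabarap* fell by 0.39 on the log2 scale in intermittent hypoxia (SE 0.12, edgeR adjusted p = 0.0168), and its value in overlap hypoxia was −0.38 ± 0.12 (SE; edgeR adjusted p = 0.0629). This call was lost without intermittent hypoxia replicate 2 (0.0760) and with offsets for gene length and GC content, which gave −0.11. *Map1lc3a* had 29.9, 28.9, 31.4 and 30.1 CPM in intermittent hypoxia, 32.5, 34.5, 36.6 and 32.4 CPM in sustained hypoxia, 25.8, 38.03, 24.6 and 32.3 CPM in overlap hypoxia and 33.7, 46.6, 39.4 and 46.2 CPM in room air. The intermittent libraries lay in a narrow band below all room air libraries, with a log2 fold change of −0.46 ± 0.14 (SE; edgeR adjusted p = 0.0126) for *Map1lc3a*, the second LC3 gene. Counted per kilobase of exon, *Gabarapl1* (149.6 ± 6.41 CPM per kb) and *Gabarap* (119 ± 5.71 CPM per kb) had the highest room air levels of the family, and *Map1lc3b* (23.99 ± 5.95 CPM per kb) the lowest. In CPM the lowest room air mean was that of *Map1lc3a* (41.5, against 180 for *Map1lc3b*). In intermittent hypoxia *Gabarapl1* and *Gabarap* had 89.6 ± 17.5 and 90.8 ± 12.3 CPM per kb, which did not differ beyond their spread, and *Gabarapl2* had 17.7 ± 2.02 CPM per kb, against 46.03 ± 4.93 CPM per kb in room air.

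**Figure D2:**
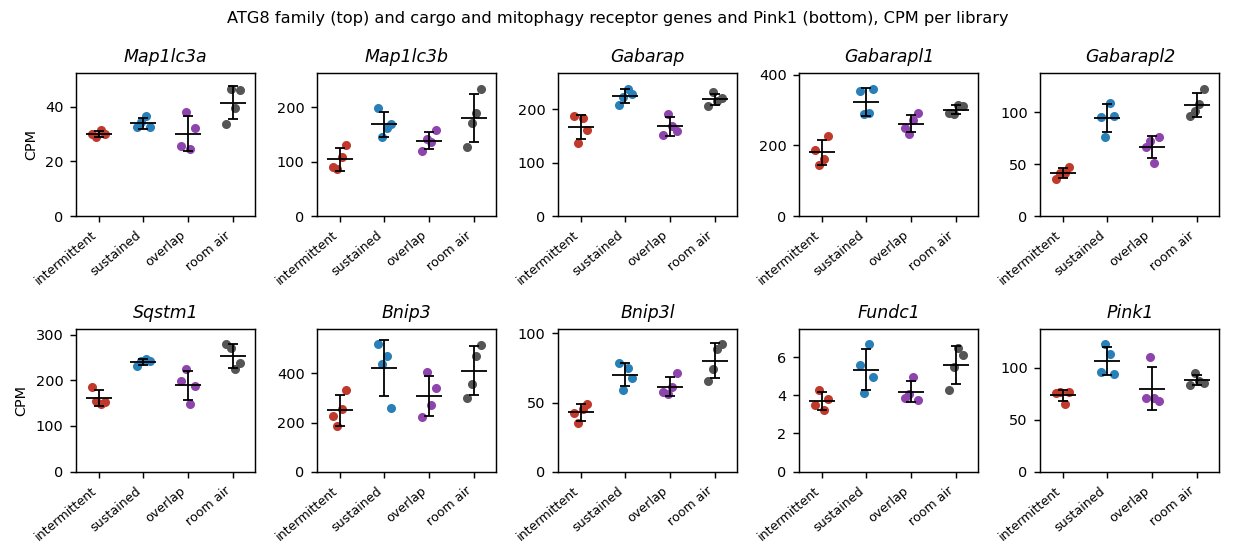
CPM (y axes, from 0) of the 5 ATG8 genes in the top row and the 4 receptor genes with *Pink1* in the bottom row, 1 point per library and 4 libraries a group, with the group mean and SD in black. Intermittent hypoxia, at the left of each panel, has the lowest group mean for all 10 genes, nearly level with overlap hypoxia for *Gabarap* and *Map1lc3a*. *Pink1* is the 1 gene of the 10 that did not pass against room air in any exposure.

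Receptors select what is enclosed. All 4 receptor genes fell in intermittent hypoxia, and none passed in sustained or overlap hypoxia. *Bnip3l* had 42.5, 34.96, 45.2 and 48.9 CPM in intermittent hypoxia, 78.7, 59.4, 75.2 and 67.8 CPM in sustained hypoxia, 57.4, 55.8, 61.2 and 71.1 CPM in overlap hypoxia and 65.3, 74.5, 89.1 and 92.4 CPM in room air. All intermittent libraries lay below all room air libraries. *Bnip3l* (NIX), a mitophagy receptor of the outer mitochondrial membrane, had a log2 fold change of −0.91 ± 0.14 (SE; edgeR adjusted p = 9.02e-05) in intermittent hypoxia, −0.39 in overlap hypoxia (edgeR adjusted p = 0.105) and −0.19 in sustained hypoxia (95% interval −0.47 to 0.08). *Bnip3* had 225, 184, 256 and 332 CPM in intermittent hypoxia, 519.8, 440.3, 472 and 258 CPM in sustained hypoxia, 221, 405, 270.3 and 338.7 CPM in overlap hypoxia and 299, 358, 470.0 and 518 CPM in room air. The groups overlapped in every comparison, and *Bnip3* spread widely within each of them. It was the gene with the highest room air level per kilobase of the 33 (182 ± 44.3 CPM per kb), and its range there overlapped that of *Lamp1* (155 ± 4.56 CPM per kb), the next. In CPM, *Lamp2* (472), *Ctsb* (447), *Ctsl* (427) and *Lamp1* (414) had higher room air means than *Bnip3* (411). Its log2 fold change was −0.72 ± 0.24 (SE; edgeR adjusted p = 0.0241) in intermittent hypoxia, −0.41 in overlap hypoxia (95% interval −0.88 to 0.05) and 0.04 in sustained hypoxia (95% interval −0.43 to 0.50), so no exposure showed *Bnip3* above room air beyond this error. The intermittent call was lost without room air replicate 3 (0.0678), room air replicate 4 (0.0849), intermittent hypoxia replicate 1 (0.0595) and intermittent hypoxia replicate 2 (0.0860), and offsets for length and GC content gave −0.42. Words of 50 bases shared with other genes made up 20.8% of *Bnip3l* and 16.5% of *Bnip3*, so their counts rest in part on shared reads. The same limit holds for *Ctsd* (32.4%), *Atg9a* (30.2%) and *Gabarapl2* (12.2%), and the remaining members had at most 6.46% (*Ctsl*). The annotation also places *Gm45507* on the opposite strand across 22.3% of the exonic bases of *Bnip3*. *Gm45507* had 0, 18.1, 21.1 and 0 CPM in intermittent hypoxia and 0.314, 0, 2.32 and 0 CPM in room air. The strand setting is not given, and whether reads of *Bnip3* are among these was not tested.

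*Sqstm1* had 186, 156, 147 and 153 CPM in intermittent hypoxia, 231, 242, 246 and 242 CPM in sustained hypoxia, 199, 224, 148 and 187 CPM in overlap hypoxia and 279.5, 271, 224 and 238 CPM in room air. The intermittent libraries lay below every room air library, and the overlap libraries spread across both ranges. *Sqstm1* encodes p62, the receptor for ubiquitin-tagged cargo, which is itself degraded by autophagy. Its log2 fold change was −0.66 ± 0.13 (SE; edgeR adjusted p = 7.47e-04) in intermittent hypoxia and −0.42 in overlap hypoxia (edgeR adjusted p = 0.0631). *Fundc1* had 3.47, 4.26, 3.23 and 3.82 CPM in intermittent hypoxia, 5.60, 4.11, 6.68 and 4.97 CPM in sustained hypoxia, 3.87, 4.09, 4.98 and 3.78 CPM in overlap hypoxia and 4.25, 5.48, 6.48 and 6.12 CPM in room air. *Fundc1*, a mitochondrial receptor described in hypoxic cells, overlapped between the groups at the ends of their ranges, with a log2 fold change of −0.59 ± 0.19 (SE; edgeR adjusted p = 0.0174). That call was lost without room air replicate 3 (0.0595) and with offsets for length and GC content, which gave −0.25. *Pink1*, the kinase that marks damaged mitochondria, had 75.4, 76.6, 65.5 and 76.4 CPM in intermittent hypoxia, 96.5, 123, 113 and 93.9 CPM in sustained hypoxia, 70.7, 111, 70.9 and 68.1 CPM in overlap hypoxia and 83.8, 95.4, 87.8 and 85.9 CPM in room air. It did not pass against room air in intermittent hypoxia (−0.26 ± 0.15 (SE; edgeR adjusted p = 0.168)), although its 4 intermittent libraries lay below the 4 room air libraries.

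Lysosomal genes fell in 5 of 6 cases in intermittent hypoxia and in 2 of 6 in overlap hypoxia, and none passed in sustained hypoxia. *Lamp2* had 271, 207, 279.7 and 302 CPM in intermittent hypoxia, 383, 313.5, 394 and 369 CPM in sustained hypoxia, 368, 279.6, 370.4 and 336.9 CPM in overlap hypoxia and 405, 471, 578 and 432 CPM in room air. All 3 exposures lay below room air in every library. *Lamp2*, a membrane protein needed for autophagosomes to fuse with lysosomes, had a log2 fold change of −0.83 ± 0.15 (SE; edgeR adjusted p = 2.66e-04) in intermittent hypoxia, −0.37 ± 0.15 (SE; edgeR adjusted p = 0.327) in sustained hypoxia and −0.48 ± 0.15 (SE; edgeR adjusted p = 0.0567) in overlap hypoxia, of which the first passed. *Lamp1* had 323, 203, 276 and 303 CPM in intermittent hypoxia, 417, 368, 445 and 444 CPM in sustained hypoxia, 414, 298, 383 and 413 CPM in overlap hypoxia and 416, 430.4, 402 and 409 CPM in room air. *Lamp1*, its partner in the lysosomal membrane and the gene with 4 E-boxes printed above, fell to 276 ± 52.2 CPM in intermittent hypoxia, against 414 ± 12.2 CPM in room air (SD, n = 4 each), with no overlap between these groups. The log2 fold change was −0.59 ± 0.14 (SE; edgeR adjusted p = 0.00348).

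*Hexa* had 24.5, 18.9, 16.3 and 25.1 CPM in intermittent hypoxia, 41.8, 38.1, 37.8 and 38.9 CPM in sustained hypoxia, 21.7, 30.5, 20.01 and 24.8 CPM in overlap hypoxia and 29.2, 37.6, 39.1 and 51.7 CPM in room air. *Hexa*, which encodes a subunit of the glycolipid-degrading beta-hexosaminidase, was below room air in all 4 intermittent libraries, while 1 overlap library reached into the room air range. The log2 fold change of *Hexa* was −0.89 ± 0.17 (SE; edgeR adjusted p = 5.24e-04) in intermittent hypoxia and −0.70 ± 0.17 (SE; edgeR adjusted p = 0.0227) in overlap hypoxia. The overlap call was lost without room air replicate 3 (0.0676), room air replicate 4 (0.105), overlap hypoxia replicate 1 (0.0796) and overlap hypoxia replicate 3 (0.0871). *Ctsd* had 184, 162, 186 and 237 CPM in intermittent hypoxia, 357, 318.1, 358 and 315.1 CPM in sustained hypoxia, 255, 294, 192 and 270.1 CPM in overlap hypoxia and 256, 320.5, 320.4 and 379.9 CPM in room air. *Ctsd*, an aspartic protease, fell by 0.73 on the log2 scale in intermittent hypoxia (SE 0.15, edgeR adjusted p = 0.00100), with the groups apart. The annotation places *Gm49369* on the same strand across 34.4% of its exonic bases, and that gene held at most 0.126 CPM in any library.

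*Ctsb* had 433, 283, 333 and 340.4 CPM in intermittent hypoxia, 406, 418, 412 and 437 CPM in sustained hypoxia, 334, 331, 295 and 311.3 CPM in overlap hypoxia and 414, 491, 447 and 435 CPM in room air. *Ctsb*, a cysteine protease, was below room air in all 4 overlap libraries, whereas intermittent replicate 1 lay within the room air range. Its log2 fold change was −0.36 ± 0.13 (SE; edgeR adjusted p = 0.0301) in intermittent hypoxia and −0.49 ± 0.13 (SE; edgeR adjusted p = 0.0288) in overlap hypoxia. The intermittent call was lost without room air replicate 2 (0.0879), room air replicate 3 (0.0607), room air replicate 4 (0.0524), intermittent hypoxia replicate 2 (0.127), intermittent hypoxia replicate 3 (0.0851) and intermittent hypoxia replicate 4 (0.0523), and the overlap call without room air replicate 2 (0.0864), room air replicate 3 (0.0881), room air replicate 4 (0.0688), overlap hypoxia replicate 1 (0.0644), overlap hypoxia replicate 3 (0.0946) and overlap hypoxia replicate 4 (0.0507). *Ctsl*, a related cysteine protease, ranged from 304 to 502 CPM in intermittent hypoxia and from 384 to 487 CPM in room air, with a log2 fold change of −0.11 (95% interval −0.41 to 0.19). Per kilobase of exon, *Ctsd* (81.7 ± 13.6 CPM per kb in intermittent hypoxia, 136 ± 21.5 in room air) had the highest level of these protease genes in both groups. In CPM it had the lowest, since within each of these groups all *Ctsd* values lay below all *Ctsb* and *Ctsl* values. The order of the protease genes therefore depends on the division by exonic length. Macrophages are rich in lysosomal transcripts. The Kupffer cell markers other than *C6* had a lower mean sum in all 3 exposures (46.5 CPM in intermittent, 66.2 CPM in sustained and 38.2 CPM in overlap hypoxia, against 106 CPM in room air). *C6*, left out after its values were seen, had means of 58.3, 94.9 and 95.5 CPM in the same order, against 89.0 CPM in room air. The part of macrophages in the lysosomal values was not tested.

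**Figure D3:**
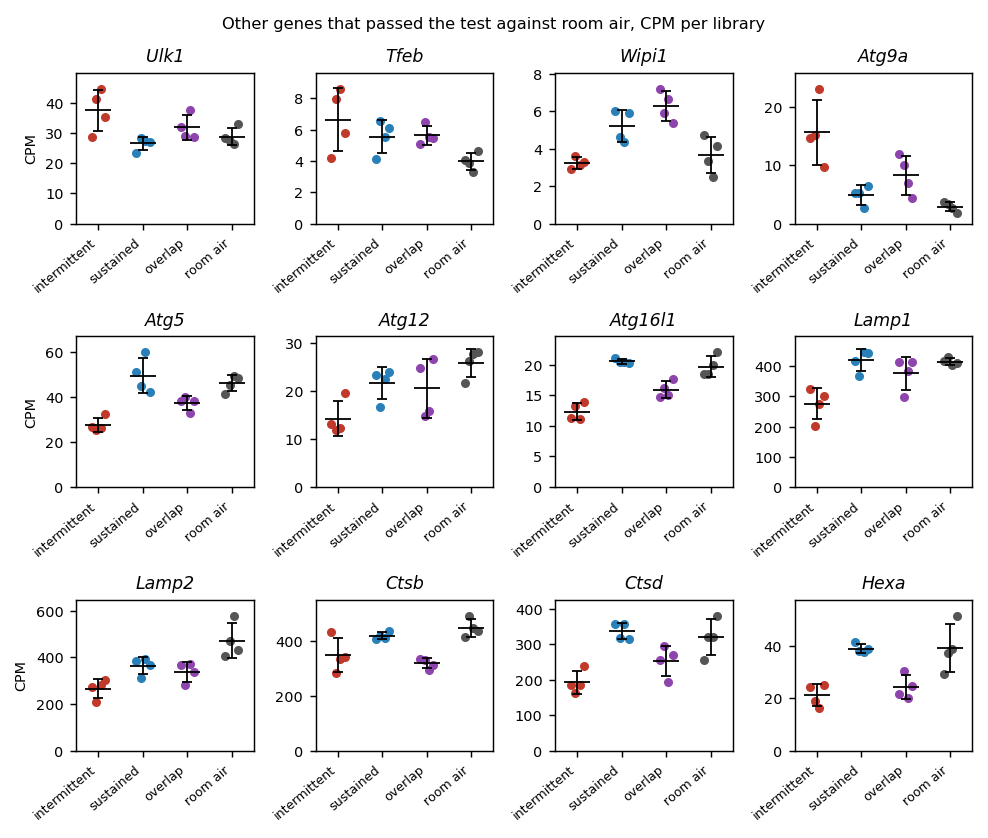
CPM (y axes, from 0) of the 12 further genes that passed against room air in intermittent or overlap hypoxia, 1 point per library and 4 libraries a group, with mean and SD in black. *Ulk1*, *Tfeb* and *Atg9a* passed as higher in intermittent hypoxia and *Wipi1* and *Atg9a* in overlap hypoxia, and the other 8 genes passed as lower in 1 or both.

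Of the 7 genes of the conjugation chain and its membrane supply, 3 fell and 1 rose in intermittent hypoxia. The 3 that fell encode the complex that attaches LC3 to the membrane. *Atg5* had 26.9, 25.3, 26.5 and 32.4 CPM in intermittent hypoxia, 51.5, 44.9, 60.02 and 42.2 CPM in sustained hypoxia, 38.4, 40.03, 33.1 and 38.6 CPM in overlap hypoxia and 41.5, 45.4, 49.5 and 48.6 CPM in room air. *Atg12* had 13.2, 11.8, 12.3 and 19.6 CPM in intermittent hypoxia, 23.4, 16.6, 22.4 and 23.99 CPM in sustained hypoxia, 24.8, 14.8, 15.8 and 26.6 CPM in overlap hypoxia and 21.6, 26.2, 27.6 and 27.99 CPM in room air. *Atg16l1* had 11.2, 13.2, 11.05 and 13.8 CPM in intermittent hypoxia, 21.04, 20.4, 20.4 and 20.3 CPM in sustained hypoxia, 14.6, 16.2, 15.03 and 17.7 CPM in overlap hypoxia and 18.4, 18.4, 19.9 and 21.99 CPM in room air. In all 3 the intermittent libraries lay below the room air libraries without overlap. The log2 fold changes in intermittent hypoxia were −0.73 ± 0.13 (SE; edgeR adjusted p = 2.29e-04) for *Atg5*, −0.86 ± 0.20 (SE; edgeR adjusted p = 0.00204) for *Atg12* and −0.67 ± 0.12 (SE; edgeR adjusted p = 2.59e-04) for *Atg16l1*. *Atg3* and *Atg7*, the E2- and E1-like enzymes of the same chain, and *Atg4b*, the protease that primes LC3, did not pass. Their log2 fold changes were 0.12 (95% interval −0.17 to 0.40), 0.17 (95% interval −0.17 to 0.52) and −0.29 (95% interval −0.60 to 0.02).

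*Atg9a* had 14.7, 15.1, 23.1 and 9.70 CPM in intermittent hypoxia, 5.19, 5.32, 2.61 and 6.48 CPM in sustained hypoxia, 11.9, 10.1, 6.90 and 4.37 CPM in overlap hypoxia and 3.67, 3.31, 2.76 and 1.87 CPM in room air. *Atg9a*, a lipid scramblase that supplies membrane to the growing autophagosome, was above every room air library in all intermittent and all overlap libraries. Against room air the log2 fold change was 2.42 ± 0.35 (SE; edgeR adjusted p = 7.72e-05) in intermittent hypoxia, the largest of the 33 in size, 1.52 ± 0.34 (SE; edgeR adjusted p = 0.0175) in overlap hypoxia and 0.76 ± 0.34 (SE; edgeR adjusted p = 0.400) in sustained hypoxia. The overlap call was lost without room air replicate 3 (0.0646), room air replicate 4 (0.0567) and overlap hypoxia replicate 1 (0.0621). The value is uncertain because the annotation places *Gm29253*, a processed transcript, on the same strand across 31.8% of the exonic bases of *Atg9a*. *Gm29253* had 2.58, 5.44, 3.23 and 8.37 CPM in intermittent hypoxia, 5.74, 7.30, 12.8 and 7.74 CPM in overlap hypoxia and 8.90, 11.6, 5.90 and 11.9 CPM in room air. Both genes together held 20.5 ± 4.08 CPM in intermittent, 16.7 ± 2.96 CPM in sustained and 16.7 ± 3.22 CPM in overlap hypoxia, against 12.5 ± 2.71 CPM in room air (SD, n = 4 each). On that sum the ratio of means to room air was 1.65 in intermittent hypoxia, with no overlap (exact two-sided permutation p = 0.0286, the smallest possible), and 1.34 in overlap hypoxia (exact p = 0.114). *Atg9a* took 74.99% of the sum in intermittent hypoxia and 24.2% in room air. The log2 ratio of the summed means was 0.72, against 2.42 for *Atg9a* by itself.

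The genes that start the process showed few calls in intermittent hypoxia. *Ulk1* had 28.8, 41.2, 44.6 and 35.3 CPM in intermittent hypoxia, 23.2, 28.5, 27.5 and 26.97 CPM in sustained hypoxia, 32.2, 28.9, 37.6 and 28.8 CPM in overlap hypoxia and 28.4, 27.5, 26.5 and 33.1 CPM in room air. The intermittent and room air ranges overlapped. *Ulk1*, the initiating kinase, had a log2 fold change of 0.38 ± 0.14 (SE; edgeR adjusted p = 0.0393). The call was lost without room air replicate 1 (0.0732), room air replicate 2 (0.0932), room air replicate 3 (0.103), sustained hypoxia replicate 4 (0.05002), intermittent hypoxia replicate 2 (0.0997) and intermittent hypoxia replicate 3 (0.130), and offsets for length and GC content turned the value to −0.15. *Atg13*, which binds ULK1, did not pass in any exposure, and its log2 fold changes ran from −0.27 in intermittent to 0.25 in overlap hypoxia. None of the 6 genes of the class III PI3 kinase complex and the proteins that bind its lipid passed in intermittent hypoxia. Among these, *Pik3c3*, the lipid kinase, came nearest with −0.47 ± 0.19 (SE; edgeR adjusted p = 0.0604), and *Becn1*, its regulatory partner, had −0.16 ± 0.12 (SE; edgeR adjusted p = 0.346). *Atg14* and *Uvrag*, which direct the kinase to autophagosomes or to endosomes, had 0.33 and −0.01, and *Wipi2*, a lipid-binding recruiter of ATG16L1, had −0.20.

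*Wipi1* had 2.90, 3.64, 3.14 and 3.31 CPM in intermittent hypoxia, 6.005, 4.64, 4.37 and 5.90 CPM in sustained hypoxia, 7.20, 5.91, 6.64 and 5.40 CPM in overlap hypoxia and 4.74, 3.33, 2.49 and 4.13 CPM in room air. *Wipi1*, a lipid-binding protein of the early autophagosome, was higher in all 4 overlap libraries than in any room air or intermittent library. Its log2 fold change in overlap hypoxia was 0.78 ± 0.20 (SE; edgeR adjusted p = 0.0257) against room air and 0.95 ± 0.20 (SE; edgeR adjusted p = 0.0167) against intermittent hypoxia. In intermittent and sustained hypoxia it did not pass against room air, with −0.18 ± 0.20 (SE; edgeR adjusted p = 0.518) and 0.51 ± 0.19 (SE; edgeR adjusted p = 0.320). The overlap call against room air was lost without room air replicate 2 (0.0694), room air replicate 3 (0.0995), room air replicate 4 (0.0506), overlap hypoxia replicate 1 (0.0880) and overlap hypoxia replicate 3 (0.0716), and the call against intermittent hypoxia without overlap hypoxia replicate 4 (0.0569).

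Of the 2 genes for transcription factors of the pathway, 1 rose in intermittent hypoxia and none passed in the other exposures. *Tfeb* had 4.21, 7.96, 8.60 and 5.79 CPM in intermittent hypoxia, 4.11, 6.53, 5.51 and 6.11 CPM in sustained hypoxia, 5.11, 6.50, 5.50 and 5.47 CPM in overlap hypoxia and 4.09, 3.88, 3.33 and 4.66 CPM in room air. *Tfeb* ranges overlapped in intermittent hypoxia and did not overlap in overlap hypoxia. Its log2 fold change was 0.73 ± 0.21 (SE; edgeR adjusted p = 0.00971) in intermittent, 0.48 ± 0.21 (SE; edgeR adjusted p = 0.373) in sustained and 0.50 ± 0.21 (SE; edgeR adjusted p = 0.155) in overlap hypoxia, and it passed in the first. Offsets for gene length and GC content gave 0.08 there, which ended the call. *Tfe3* had 0.29 (95% interval −0.13 to 0.71) and did not pass. Transcript levels of *Tfeb* say nothing of the protein's entry to the nucleus, which is how it is known to be controlled.

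Between exposures, intermittent hypoxia stood lower than sustained hypoxia in 19 of the 33 genes and higher in 2, *Ulk1* (0.50 ± 0.14 (SE; edgeR adjusted p = 0.00842)) and *Atg9a* (1.66 ± 0.33 (SE; edgeR adjusted p = 0.00109)), where 38.4% of all genes passed, 18.9% as lower and 19.5% as higher. For *Atg9a* the sum with *Gm29253* was 1.23 times as high in intermittent as in sustained hypoxia, with overlapping libraries (exact two-sided permutation p = 0.229), and *Atg9a* took 74.99% and 30.5% of it. The 19 included *Gabarapl2* (−1.19 ± 0.14 (SE; edgeR adjusted p = 1.91e-05)), *Atg5* (−0.84 ± 0.13 (SE; edgeR adjusted p = 9.02e-05)), *Bnip3l* (−0.71 ± 0.14 (SE; edgeR adjusted p = 7.00e-04)), *Ctsd* (−0.81 ± 0.15 (SE; edgeR adjusted p = 4.63e-04)) and, unlike the comparison with room air, *Pink1* (−0.54 ± 0.15 (SE; edgeR adjusted p = 0.00719)), *Wipi1* (−0.69 ± 0.20 (SE; edgeR adjusted p = 0.00976)), *Atg13* and *Ctsl*. The calls of *Atg12*, *Atg13*, *Bnip3*, *Ctsl*, *Fundc1* and *Lamp2* did not survive every removal of a library (largest edgeR adjusted p 0.0725, 0.119, 0.0648, 0.180, 0.113 and 0.0764, each without intermittent replicate 2 except *Fundc1*, without sustained replicate 3).

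Overlap hypoxia was higher than intermittent hypoxia in 5 of the 33 genes and lower in none, where 6.15% of all genes passed, 3.2% as higher and 2.95% as lower. Beside *Wipi1*, these were *Gabarapl2* (0.69 ± 0.14 (SE; edgeR adjusted p = 0.0162)), *Gabarapl1* (0.53 ± 0.14 (SE; edgeR adjusted p = 0.0304)), *Bnip3l* (0.52 ± 0.14 (SE; edgeR adjusted p = 0.0377)) and *Atg5* (0.43 ± 0.13 (SE; edgeR adjusted p = 0.0496)). None of the 5 passed without overlap replicate 4, with edgeR adjusted p from 0.0569 for *Wipi1* to 0.141 for *Bnip3l*, and 3, 2, 2 and 8 of the 33 passed without intermittent replicates 1 to 4. Against sustained hypoxia no member passed in overlap hypoxia with edgeR, where 0.165% of all genes did, while 13 of 33 had an unadjusted p under 0.05 (20.5% of all genes), 6 passed with DESeq2 and 9 with limma-voom, all of them as lower. Without overlap replicate 2, edgeR called 6 of the 33 in that comparison.

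Genes of the wider pathway that are not among the 33 were counted from lists drawn up by function, and their counts stand beside the 18.3% of all genes that passed as lower and the 18.9% that passed as higher in intermittent hypoxia. Of 16 subunits of the V-ATPase, the proton pump that acidifies lysosomes, 9 fell and 1 rose in intermittent hypoxia, and *Atp6v0b* (−1.25 ± 0.18, edgeR adjusted p = 4.17e-05), *Atp6ap1* (−0.59 ± 0.11) and *Atp6v1a* (−0.56 ± 0.13) stood against *Atp6v0a1* (1.56 ± 0.26). Of 55 other lysosomal hydrolase and membrane genes 20 fell and 8 rose. *Lgmn*, the protease legumain (−1.58 ± 0.17, edgeR adjusted p = 5.84e-06), and *M6pr*, a sorting receptor for lysosomal enzymes (−0.69 ± 0.11), were lower, whereas *Grn*, progranulin (1.03 ± 0.19), was higher. Of 19 other mitophagy genes 6 fell, among them *Parl*, a mitochondrial protease that cuts PINK1 (−0.75 ± 0.14), and *Mul1*, a mitochondrial ubiquitin ligase (−0.63 ± 0.13), and 2 rose, *Mfn2*, a mitochondrial fusion gene (0.57 ± 0.13), and *Usp30*, a deubiquitinase that opposes mitophagy (0.59 ± 0.17).

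Of 40 other autophagy genes 10 rose and 10 fell, 25% in each direction. *Tecpr1* (1.98 ± 0.30, edgeR adjusted p = 5.63e-05), a tethering factor, and *Nbr1* (1.28 ± 0.16), a receptor related to p62, were higher, and *Atg4d* (−0.68 ± 0.15) and *Atg101* (−0.59 ± 0.12), a subunit of the ULK1 complex, were lower. Of 34 genes of mTORC1 and AMPK control at the lysosome 12 rose and 9 fell, with *Stk11*, the kinase LKB1 (1.20 ± 0.18), and *Flcn*, folliculin (1.03 ± 0.16), higher and *Rraga*, a Rag GTPase (−1.16 ± 0.19), and *Lamtor1*, its lysosomal anchor (−1.12 ± 0.16), lower. Of 11 other transcription factors 3 rose, *Foxo4* (0.96 ± 0.20), *Foxo3* (0.76 ± 0.18) and *Foxo1* (0.66 ± 0.24), and none fell. Over all 6 lists 36 of 175 genes rose (20.6%) and 54 fell (30.9%). In sustained hypoxia no gene of any of these 6 lists passed with edgeR, with 19 of 175 (10.9%, against 11.5% of all genes) at an unadjusted p under 0.05, and 3 passed with DESeq2 and 4 with limma-voom. In overlap hypoxia 11 of the same 175 genes rose (6.29%, against 3.41% of all genes) and 9 fell (5.14%, against 2.89%). *Nbr1* (0.97 ± 0.16, edgeR adjusted p = 0.00466) and *Tecpr1* (1.22 ± 0.30, edgeR adjusted p = 0.0210) were among those that rose, and *Lgmn* (−1.05 ± 0.16, edgeR adjusted p = 0.00290), *Atp6ap1* (−0.49 ± 0.11, edgeR adjusted p = 0.0128) and *Atp6v0b* (−0.72 ± 0.18, edgeR adjusted p = 0.0228) among those that fell.

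**Figure D4:**
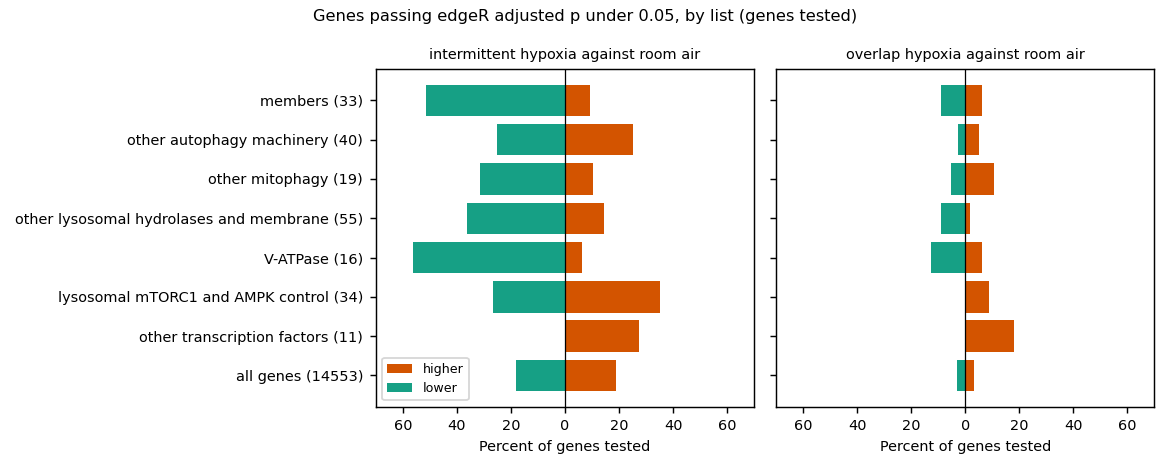
Percent of the tested genes of each list (number in brackets) that passed the edgeR test, to the right as higher and to the left as lower, in intermittent hypoxia (left panel) and overlap hypoxia (right panel) against room air. In intermittent hypoxia 17 of 33 members and 9 of 16 V-ATPase genes were lower, where 18.3% of all genes, in the bottom bars, were.

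Gene length moved with the changes. Over the 33 genes, whose exonic length ran from 1181 to 10543 bases, Spearman's rho between length and log2 fold change was 0.33 in intermittent, 0.01 in sustained and 0.37 in overlap hypoxia, against 0.26, −0.12 and 0.21 over 14540 genes, which share their libraries and are not independent. Between GC content and log2 fold change the members' rho was 0.37, 0.21 and 0.27 in the same order, against 0.09, 0.40 and 0.13 over all genes. With offsets for length and GC content, 18 of the 33 passed in intermittent hypoxia, 17 lower and 1, *Atg9a*, higher, where 18.4% of all genes passed as lower and 16% as higher with the same offsets. *Wipi2* (−0.57), *Atg4b* (−0.52) and *Pink1* (−0.42) then passed as lower, and *Gabarap*, *Bnip3*, *Fundc1*, *Ulk1* and *Tfeb* did not pass. With the ribosomal RNA share of each library as a covariate, *Gabarapl2* alone of the 33 passed in intermittent hypoxia (−1.32, edgeR adjusted p = 0.0422), and 77 of all 14553 genes did. Since that share separates the 2 groups, it cannot be told apart from the exposure.

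**Figure D5:**
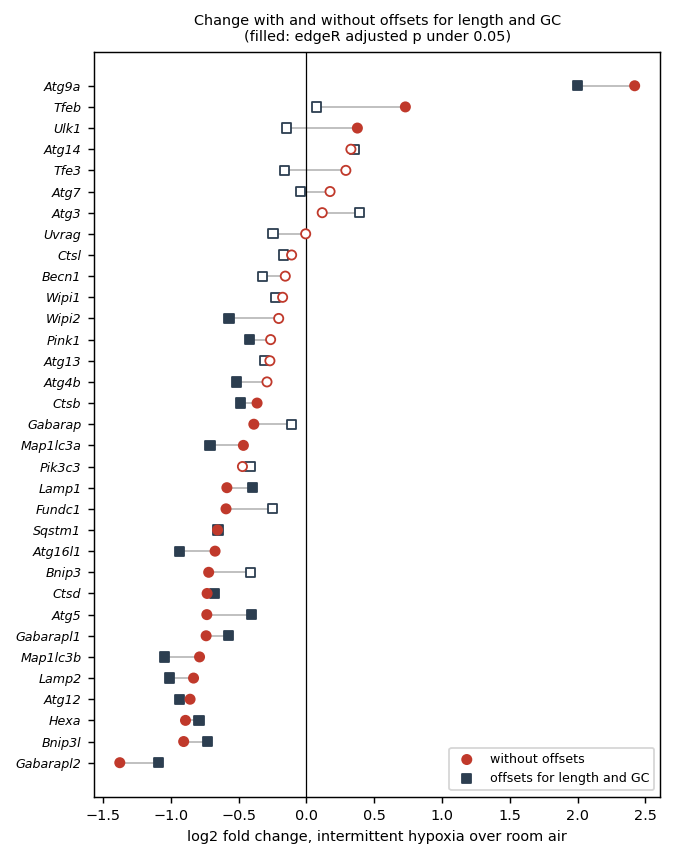
Log2 fold change in intermittent hypoxia over room air (x axis) of each of the 33 genes, without offsets (circles) and with offsets for exonic length and GC content (squares), with 4 libraries a group. Filled symbols passed the edgeR test. *Ulk1* crosses 0, as do *Atg7* and *Tfe3*, which passed in neither fit, and *Tfeb* and *Gabarap* move close to it.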

How the data were processed

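RNA of 16 mouse liver libraries, 4 in each of 4 groups taken from the sample titles, was analysed from 1 deposited table of expected counts per gene, in which the authors' pipeline shares reads that map to several genes by estimation. The submitters' processing notes name the GRCm38 genome, RSEM and Bowtie 1.3.0; annotation release, strand setting and read length are not given there or in the labels used here. Reads of antisense partners therefore cannot be separated. Libraries of 1 group were the replicates, and no 2 within a group were duplicates (chi-square per degree of freedom 61.1 or more over 24 such pairs). Pairs across groups were not compared in this way.

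Expected counts were rounded. Symbols and coordinates came from GENCODE M21 (55227 genes named). edgeR 4.0.16 in R 4.3.3 (filterByExpr, TMM scaling, robust quasi-likelihood fit) was applied to all 16 libraries with Benjamini-Hochberg adjustment over 14553 genes and a threshold of 0.05; limma 3.58.1 and DESeq2 1.42.0 were alternatives, among 26 settings in all. The script was tested on simulated data. CPM values are TMM-scaled. Same-numbered replicates were not treated as pairs. The members and gene lists were chosen with earlier results of these data known. Every member was accounted for; from each further list up to 4 genes with the lowest p in intermittent hypoxia were named, drawn equally from both directions where both existed; 1 of these is not reported here. No protein sequences were used here.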

Additional observations from a re-analysis of the deposited data

Results flagged for a closer look

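Of 236 sets of 4 libraries examined, 11 held a library far from the other 3 for the range of its set (Dixon's test at its 95% critical value); chance gives about 5% of sets. For *Atg14*, intermittent hypoxia replicate 3 had 15.2 CPM, against 8.04 to 9.15 CPM in the other 3, and room air replicate 3 had 9.09 CPM, against 7.83 to 8.002 CPM. *Pink1* had 65.5 CPM in intermittent replicate 3, against 75.4 to 76.6 CPM in the others, and 111.0 CPM in overlap replicate 2, against 68.1 to 70.9 CPM. *Tfe3* had 5.87 CPM in intermittent replicate 4, against 8.12 to 8.53 CPM in the others. *Atg3* had 39.4 CPM in sustained replicate 4, against 48.5 to 49.7 CPM. *Wipi2* had 53.8 CPM in room air replicate 4, against 42.3 to 43.1 CPM. None of these 5 genes passed against room air in any exposure.

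Among named genes of the wider pathway, *Parl* had 25.2 CPM in intermittent replicate 4, against 16.5 to 17.8 CPM in the others. *Atg4d* had 28.3 CPM in sustained replicate 2, against 33.2 to 34.2 CPM, and *Flcn* had 20.3 CPM in overlap replicate 1, against 13.1 to 13.98 CPM. *Tecpr1* had 0.643 CPM in room air replicate 3, against 1.63 to 1.72 CPM.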

How the results depend on the processing

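In intermittent hypoxia against room air, the 20 calls among the 33 genes became 16 to 21 when 1 library was left out, and 15 of the 20 passed in all 16 such fits. The ribosomal RNA share as a covariate left 1 of 20 there and 0 of 21 in intermittent against sustained hypoxia, where leaving out 1 library gave 16 to 21. In overlap hypoxia against room air the 5 calls became 9 with DESeq2, 10 with limma-voom, 2 with the covariate, 8 with the length and GC offsets and 1 to 8 when 1 library was left out. In overlap against intermittent hypoxia the 5 calls became 0 with only both compared groups fitted, 9 with DESeq2, 0 with the covariate and 0 to 8 when 1 library was left out. In overlap against sustained hypoxia the 0 calls became 1 without the filter on low counts, 6 with DESeq2, 9 with limma-voom and 0 to 6 when 1 library was left out. In sustained hypoxia against room air it stayed at 0 of the 33 members in all 26 other settings, while the count over all genes, 7, became 176 with DESeq2 and 246 with limma-voom. Apart from what is given for single libraries, the cause was not tested. Among the genes called, direction turned for *Ulk1* in intermittent hypoxia against room air (−0.15 with the offsets) and, in intermittent against sustained hypoxia with the covariate, for *Pink1* (0.083) and *Ctsl* (0.22). Upper-quartile scaling moved the median of all genes in intermittent hypoxia to 0.12, against 0.03 with TMM, and that of the 33 to −0.30, against −0.39.

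Same-numbered replicates were not treated as pairs, since only 4 of 24 pairs of libraries had a correlation over 0.1 (from −0.10 to 0.18). Of 16 libraries, 9 were closest to their own number, where an even spread over the numbers would give 4, which is a hint of shared deviations from the data and not from the design. With a replicate block, 20 of the 33 genes passed for intermittent hypoxia and 8 for overlap hypoxia, each against room air, and 8 for overlap against intermittent hypoxia.

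Over all genes tested the count in overlap against room air, 916, became 1445 with DESeq2 and 361 with the covariate. In overlap against sustained hypoxia the count of 24 became 896 with DESeq2 and 1210 with limma-voom. The smallest library held 10940253 counts. *Tfeb*, *Tfe3*, *Wipi1*, *Atg14*, *Fundc1* and *Atg9a* had means under 10 CPM in room air, where counting error is largest.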
